A study of Mus musculus with 16 samples.

Results

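H3K27ac-marked regions that the untreated macrophages alone lacked are described here. The 4 deposited peak lists were merged wherever peaks shared at least 1 bp, and a region was chosen by the presence of a called peak in the IFNγ, PJ34 and IFNγ+PJ34 lists and by the absence of any in the Control list. This gave 745 of 55218 merged regions, which is 1.35% of them. Because presence and absence of peaks selected the regions, their absence from Control is not a result.

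The cells were bone marrow-derived macrophages (BMDMs), primary macrophages grown from the marrow of C57Bl6 mice aged 8 to 12 weeks. The Control cells were untreated, the IFNγ cells received 100 ng/mL interferon gamma for 1 h, the PJ34 cells received 20 µM PJ34, and the IFNγ+PJ34 cells received PJ34 1 h before the same IFNγ treatment. How long the PJ34 cells were exposed without IFNγ is not stated in the labels. The labels give 2 ChIP replicates per condition. The methods describe a list as the peaks called in both, which could not be checked here, and the files hold neither a replicate error nor a basis for testing 1 condition against another.

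H3K27ac is an acetylation of histone H3 found at active promoters and enhancers, and it is deposited mainly by the acetyltransferases p300 and CBP. IFNγ signals through the JAK1 and JAK2 kinases, and the GAS element is a short sequence found at genes that respond to it. PJ34 inhibits PARP-1 and related enzymes, which attach ADP-ribose to proteins, chromatin proteins among them.

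The sequences around the summits of a few of these regions are shown, since letters matched by transcription factor motifs are the property examined most closely below. The first 3 are the highest-ranked members whose window holds no annotated exon. The next 4 hold TTCCNGGAA, the strict form of the GAS element, the following 3 hold an ISRE (GAAA repeated after any 2 bases), an element bound by IRF proteins, and the last lies upstream of Il6. Each window reaches 100 bp to either side of the summit of the highest-ranked peak, from the plus strand of RefSeq GRCm38.p6, the build of the files (mm10). Capitals mark GAS (TTCNNNGAA), ISRE, AP-1 (TGACTCA), PU.1 (GAGGAAGT), C/EBP (TTGCNNAA) or E-box (CACGTG) letters on either strand. A match is a description of the letters and not a binding site. Each window is named for the gene with the nearest start site, which can be far away. The distance was 413 kb for Atp2b1, 191 kb for P2ry1, 71.0 kb for Jak2 and 125 kb for Tax1bp1, whose window lies in a Jazf1 intron. For Il6 it was 0.611 kb.

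Aqp9, chr9:71144127-71144327, plus strand: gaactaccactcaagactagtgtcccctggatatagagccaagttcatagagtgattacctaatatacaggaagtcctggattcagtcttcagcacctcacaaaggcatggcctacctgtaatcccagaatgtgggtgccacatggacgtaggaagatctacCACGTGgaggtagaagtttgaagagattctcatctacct
Tnfsf4, chr1:161376567-161376767, plus strand: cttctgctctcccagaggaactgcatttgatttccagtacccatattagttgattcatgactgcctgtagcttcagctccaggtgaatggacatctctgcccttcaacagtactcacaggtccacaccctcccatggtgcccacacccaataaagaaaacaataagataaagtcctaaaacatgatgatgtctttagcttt
Ptprj, chr2:90509656-90509856, plus strand: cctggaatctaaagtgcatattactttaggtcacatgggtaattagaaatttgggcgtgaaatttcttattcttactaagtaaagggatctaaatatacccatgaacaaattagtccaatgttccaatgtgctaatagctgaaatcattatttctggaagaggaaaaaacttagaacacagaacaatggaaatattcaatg
P2ry1, chr3:60811447-60811647, plus strand: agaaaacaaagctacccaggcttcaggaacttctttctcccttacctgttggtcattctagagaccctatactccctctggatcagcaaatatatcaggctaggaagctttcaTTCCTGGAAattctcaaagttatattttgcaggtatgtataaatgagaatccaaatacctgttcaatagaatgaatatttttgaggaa
Jak2, chr19:29180754-29180954, plus strand: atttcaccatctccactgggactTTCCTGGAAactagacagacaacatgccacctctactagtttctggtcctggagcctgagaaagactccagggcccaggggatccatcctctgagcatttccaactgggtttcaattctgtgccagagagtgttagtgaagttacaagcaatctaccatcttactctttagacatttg
Cpvl, chr6:53996840-53997040, plus strand: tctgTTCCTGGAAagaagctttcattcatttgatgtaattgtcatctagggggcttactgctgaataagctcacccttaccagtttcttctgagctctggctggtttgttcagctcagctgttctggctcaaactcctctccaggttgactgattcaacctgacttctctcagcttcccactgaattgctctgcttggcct
Aqp9, chr9:71160435-71160635, plus strand: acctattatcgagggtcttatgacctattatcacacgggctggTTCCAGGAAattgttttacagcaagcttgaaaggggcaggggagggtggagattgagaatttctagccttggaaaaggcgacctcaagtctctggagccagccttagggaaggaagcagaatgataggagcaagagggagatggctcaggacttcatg
Il15, chr8:82351672-82351872, plus strand: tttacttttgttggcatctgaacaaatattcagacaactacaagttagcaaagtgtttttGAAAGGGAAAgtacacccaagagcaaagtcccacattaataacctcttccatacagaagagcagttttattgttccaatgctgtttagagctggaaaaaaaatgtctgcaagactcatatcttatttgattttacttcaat
Atp2b1, chr10:98501833-98502033, plus strand: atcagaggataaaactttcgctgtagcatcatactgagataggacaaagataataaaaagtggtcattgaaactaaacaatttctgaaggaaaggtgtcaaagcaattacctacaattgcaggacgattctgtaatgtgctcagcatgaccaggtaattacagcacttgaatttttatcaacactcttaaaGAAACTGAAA
Tax1bp1, chr6:52838599-52838799, plus strand: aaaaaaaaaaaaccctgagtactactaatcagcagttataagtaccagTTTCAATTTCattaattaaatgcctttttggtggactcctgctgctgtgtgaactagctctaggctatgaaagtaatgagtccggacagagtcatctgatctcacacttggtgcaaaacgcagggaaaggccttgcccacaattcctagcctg
Il6, chr5:30012403-30012603, plus strand: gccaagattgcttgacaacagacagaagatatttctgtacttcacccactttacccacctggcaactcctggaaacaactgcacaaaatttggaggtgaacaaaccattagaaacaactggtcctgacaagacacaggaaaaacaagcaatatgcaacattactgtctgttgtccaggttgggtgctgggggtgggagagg

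The Aqp9 window at chr9:71144127-71144327 holds an E-box, and those of Tnfsf4, Ptprj and Il6 hold none of the 6 motifs. Of the 745 members, 7 (0.940%) hold the strict GAS in this window, against 0.576% of all 55218 regions. The looser GAS is held by 7.65% of members and 5.85% of all regions, and the ISRE by 3.22% and 2.65%. For the other motifs marked, the shares of members and of all regions are 3.76% and 3.04% for AP-1, 1.21% and 1.13% for PU.1, 6.85% and 7.05% for C/EBP, and 2.68% and 2.53% for the E-box.

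Regions missing from Control alone were mostly distal and weak. Their summits lay in introns at 362 regions (48.6%, 95% interval 44.9 to 52.2), in intergenic sequence at 315 (42.3%), within 1 kb of a protein-coding start site at 51 (6.85%, 5.14 to 8.90) and in exons at 17 (2.28%). Intervals are exact binomial ones; they cover counting error only and treat neighbouring regions as independent. The median distance to a start site was 23703 bp and the median width 754 bp, against 3118 bp and 1825 bp in the 21468 regions present in all 4 lists.

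The promoter share was 39.2 percentage points below that of the regions in all 4 lists, 46.0% (interval of the difference −40.9 to −37.0). It was also 6.73 points below that of the 1598 regions missing from IFNγ alone (−9.12 to −4.14). Against the 840 regions missing from PJ34 alone the difference was 0.06 points (−2.43 to 2.60), and against the 3024 missing from IFNγ+PJ34 alone −1.55 points (−3.46 to 0.694). A low promoter share was thus not particular to the regions that Control lacked. The share over 10 kb from a start site was 72.6%, above 62.3% in the regions missing from IFNγ alone by 10.3 points (6.23 to 14.2) and above 67.5% in those missing from IFNγ+PJ34 alone by 5.12 points (1.43 to 8.64). Against 68.5% in those missing from PJ34 alone the difference was 4.17 points, with an interval that held 0 (−0.339 to 8.62).

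**Figure D1:**
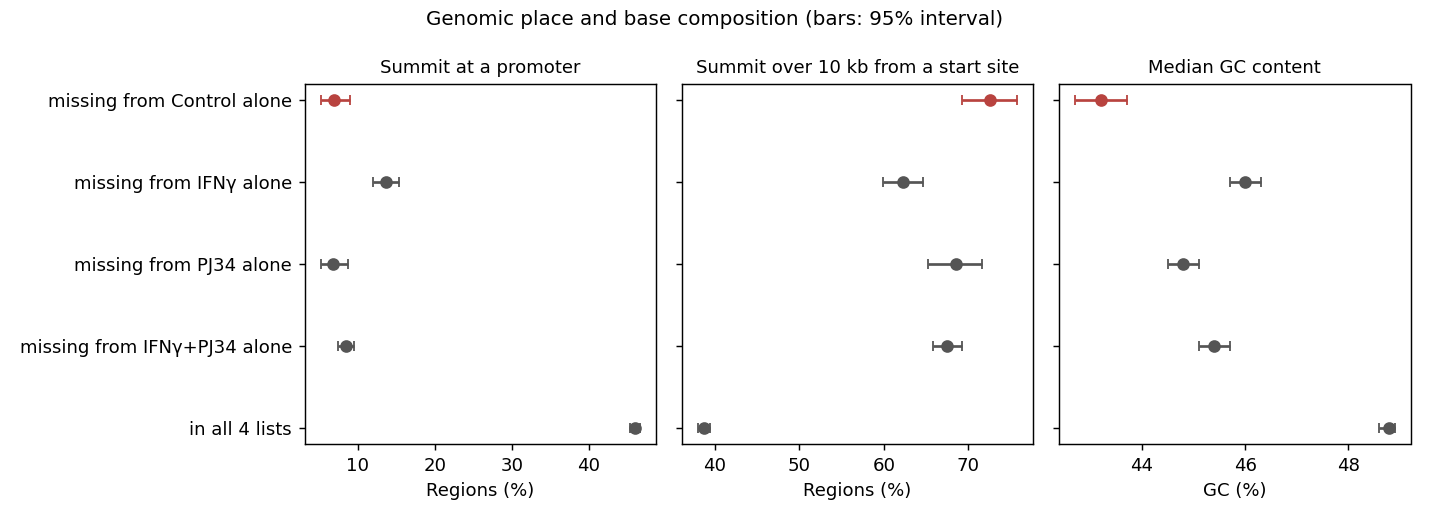
Share of regions with a summit at a promoter (left) or over 10 kb from a start site (middle), in %, and median GC content in % (right), for the regions missing from 1 list alone and those in all 4 lists, with 95% intervals. The regions missing from Control alone have a median GC of 43.2%, below every other class shown.

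The members were poor in GC, as were other regions that Control lacked. Their median GC content was 43.2% (42.7 to 43.7), against 46.0% where IFNγ alone was missing, 44.8% where PJ34 alone was, 45.4% where IFNγ+PJ34 alone was and 48.8% in all 4 lists. Outside promoters it was 43.0% (42.5 to 43.4), against 45.3% (45.2 to 45.4) in the regions of all 4 lists. Non-promoter regions found in the Control list only had 46.2%, and those found only in IFNγ, PJ34 or IFNγ+PJ34 had 43.3%, 44.4% and 43.5%. Those shared by IFNγ and IFNγ+PJ34 alone had 43.4% (43.2 to 43.7), by PJ34 and IFNγ+PJ34 alone 43.7% (43.3 to 44.3) and by IFNγ and PJ34 alone 43.8% (43.5 to 44.1). The Control peaks that the other lists lacked were therefore richer in GC than the treated peaks that Control lacked, and the part of library base composition in the choice of members was not tested.

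The members ranked low in every list that held them. Within each list, peaks were ranked by the −log10 p deposited by the authors, and a percentile of 100 is the top of that list. The median percentile of the members was 36.4 in IFNγ (quartiles 19.2 and 52.2, highest 88.7), 28.1 in PJ34 (15.0 and 40.4, highest 77.0) and 38.9 in IFNγ+PJ34 (20.8 and 57.3, highest 96.2). Regions in all 4 lists had medians of 71.4, 74.2 and 72.1. Regions missing from another list alone were low too, at 41.2 in Control, 29.5 in PJ34 and 31.3 in IFNγ+PJ34 where IFNγ alone was missing, with a median width of 752 bp, and at 34.4 in Control, 31.9 in IFNγ and 48.2 in IFNγ+PJ34 where PJ34 alone was. The deposited fold enrichment over local background had medians of 4.28, 3.63 and 4.93 in the members, against 10.6, 11.9 and 12.3.

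Few members reached the top 25% of a list: 23 did so in IFNγ, 1 in PJ34 and 50 with the 2 agents together (3.09%, 0.134% and 6.71%), against 44.4%, 48.5% and 45.5% of the regions in all 4 lists. Of the regions missing from IFNγ alone, likewise 1 of 1598 was in the top 25% of PJ34. The single member in PJ34 was an Aqp9 intron. The lowest of a member's 3 percentiles had a median of 16.4. The summits of a member lay a median of 74.0 bp apart between IFNγ and PJ34, 82.0 bp between IFNγ+PJ34 and PJ34, and 72.0 bp between IFNγ+PJ34 and IFNγ, against 42.0, 46.0 and 49.0 bp in the regions of all 4 lists.

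**Figure D2:**
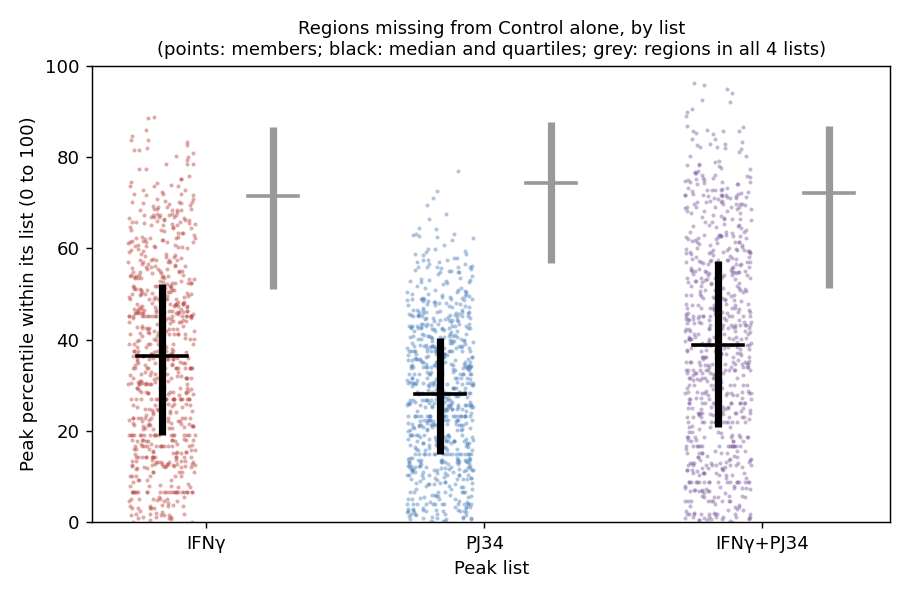
Percentile of each member within the IFNγ, PJ34 and IFNγ+PJ34 lists (coloured points), with median and quartiles in black, and the median and quartiles of the regions in all 4 lists in grey. The PJ34 points are lowest, with a median of 28.1, and only 1 is above 75.

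Some members lay close to the edge of the choice. The members nearest to a Control peak lay 3 bp (near Gm266), 7 bp (in an Elf1 intron) and 8 bp (in Rprd1b) from it, and 37 members lay within 100 bp. The regions of all 4 lists that only just overlapped Control shared 72 bp (near Rftn1), 103 bp (near Ms4a6b) and 115 bp (near Rubcnl) with its peaks. Only 1 of those 21468 regions shared 100 bp or fewer. Of all members, 235 (31.5%) had a Control peak within 1 kb, so many are stretches beside a Control peak rather than places without one. Regions missing from IFNγ, PJ34 or IFNγ+PJ34 alone had a peak of the list they lacked within 1 kb at 29.1%, 26.1% and 23.0%. The members' share was higher by 2.44 points (−1.51 to 6.50), 5.47 (1.01 to 9.93) and 8.49 (4.91 to 12.2). At the other end, a region at the Arhgap28 promoter lay 1176152 bp from any Control peak, one nearest to Tlr4 553657 bp and one nearest to Tas2r118 464800 bp, with lowest percentiles of 3.91, 9.45 and 14.2.

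Between the treated lists the members leaned away from PJ34. They ranked at least 10 percentile points higher in IFNγ than in PJ34 at 347 regions (46.6%) and at least 10 lower at 166 (22.3%), where 13.3% and 27.6% of all regions in both lists did. In IFNγ+PJ34 against PJ34 the shares were 50.6% higher and 25.0% lower, against 22.1% and 30.8%. In IFNγ+PJ34 against IFNγ they were 38.4% and 29.4%, against 25.9% and 21.6%.

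These differences were about as large in other regions of like rank. Among members at PJ34 percentiles of 0 to 20, the median of IFNγ minus PJ34 was 20.3 points, and in the regions of all 4 lists in that band it was 18.7. Between 20 and 40 the medians were 4.65 and 3.68, and between 40 and 60 they were −4.46 and −6.15. For IFNγ+PJ34 minus PJ34 they were 28.0 and 34.2, 8.57 and 13.6, and −8.61 and −1.54. The lean is thus not particular to the members once the PJ34 rank is set alike.

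Single members still differed widely between lists. An intergenic region 46.1 kb from Fgd2, which encodes an exchange factor for the GTPase CDC42, was at percentile 82.7 with IFNγ, 3.91 with PJ34 and 85.3 with both. A region near Bcl6, a transcriptional repressor, was at 75.1, 4.63 and 86.9, and an Atp11b intron at 81.5, 14.0 and 82.6. In these 3 regions both lists with IFNγ were high and PJ34 was low. A region near Stk24 was at 74.6, 8.68 and 49.6.

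The opposite order was seen in introns of Rapgef2, an exchange factor for RAP GTPases (6.60 in IFNγ, 63.2 in PJ34, 1.74 in IFNγ+PJ34), Psd3 (0.542, 56.6 and 23.0), Dmxl1 (5.57, 59.8 and 46.0), Tec, a cytoplasmic tyrosine kinase (4.57, 55.8 and 17.7), and Sh3pxd2b, a podosome adaptor (1.59, 50.9 and 26.1). In all 5 the PJ34 peak was the strongest. These regions were chosen for their differences, so the values are a description.

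The member with the highest lowest percentile over its 3 lists lay in an intron of Aqp9, which encodes a channel for water, glycerol and other small solutes. It was 4074 bp wide, at percentiles 81.6, 77.0 and 71.7 in IFNγ, PJ34 and IFNγ+PJ34, with fold enrichments of 18.6, 13.0 and 12.9. It lay 1677 bp from the nearest Control peak. The next was upstream of Tnfsf4, the gene of the costimulatory ligand OX40L, at 67.2, 71.0 and 69.0. Next came introns of Ptprj, a receptor tyrosine phosphatase (63.3, 62.5 and 89.0), Tmem39a (61.3, 66.5 and 76.0), Ust, a sulfotransferase of glycosaminoglycans (60.6, 62.9 and 74.1), and Sirpa, the inhibitory receptor for CD47 (68.7, 57.4 and 71.1).

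Another of the 10 highest lay 39.4 kb from a start site of Ch25h, which makes 25-hydroxycholesterol (67.2, 56.6 and 82.9). One had its nearest start site 169 kb away, at Ptprc, which encodes CD45 (77.4, 55.8 and 86.0). One at the Scamp3 promoter (62.3, 55.1 and 70.8) lay 101 bp from a Control peak. At Tnfsf4 the PJ34 percentile was the highest of the 3 and at Aqp9 that of IFNγ, whereas IFNγ+PJ34 was highest at the others named of these 10.

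The widest members were introns of Map3k3, a kinase of the MAPK cascades (6291 bp, at 88.7, 34.4 and 95.7), and of Mtdh (5988 bp, at 83.8 in IFNγ and 13.2 in PJ34, with a fold enrichment of 25.5 in IFNγ+PJ34), and a region of 5585 bp near Pdcd1lg2, the gene of the PD-1 ligand PD-L2 (78.4, 40.5 and 90.6). All 3 were in the top 25% of both lists with IFNγ and not of PJ34. The 233 members at least 10 points higher in both lists with IFNγ than in PJ34 had a median width of 1003 bp, against 688 bp in the other 512, and held the GAS at 7.30% and 7.81%. The share of all regions that meets this cut was not counted. The split was made on ranks, and the higher-ranked regions in all 4 lists were wider too, at a median of 1825 bp. Width was therefore not separated from rank here.

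Members gathered at some genes. Of the 745, 132 (17.7%) lay within 10 kb of another, a share of 15.3% where IFNγ alone was missing, 12.3% where PJ34 alone was and 36.6% where IFNγ+PJ34 alone was. They had 600 nearest genes, of which 504 had 1 member and 27 had 3 or more. Tnfsf4 had 7 upstream of it over 49.7 kb, Aqp9, Atp2b1 (a plasma membrane calcium pump) and Nrg1 (a ligand of ERBB receptors) had 6 each, and Dock10 and Fgd2 had 5 each. Ankrd11, Creb5, Jak1, Ptprj and St7 had 4 each. Peaks were joined only where they shared at least 1 bp, so adjacent members were counted singly. At Tnfsf4, for example, 1 member ended at chr1:161377142 and the next began at chr1:161377182. The counts are thus not counts of separate elements.

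The 7 regions upstream of Tnfsf4 lay 17.9 to 66.3 kb from its start site, at 16.6 to 67.2 in IFNγ, 10.3 to 71.0 in PJ34 and 23.0 to 69.0 in IFNγ+PJ34. The Tnfsf4 promoter itself had a peak only in PJ34, at percentile 6.59. Of the 6 at Aqp9, 5 lay within the gene. Its promoter had a peak in all 4 lists, at percentile 15.6 in Control against 61.6 with IFNγ, 60.6 with PJ34 and 52.5 with both. The 6 Nrg1 regions lay in its introns, and a promoter peak was called only in IFNγ (26.9) and IFNγ+PJ34 (38.9). The 6 regions nearest to Atp2b1 were far from it, at 248 to 420 kb.

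**Figure D3:**
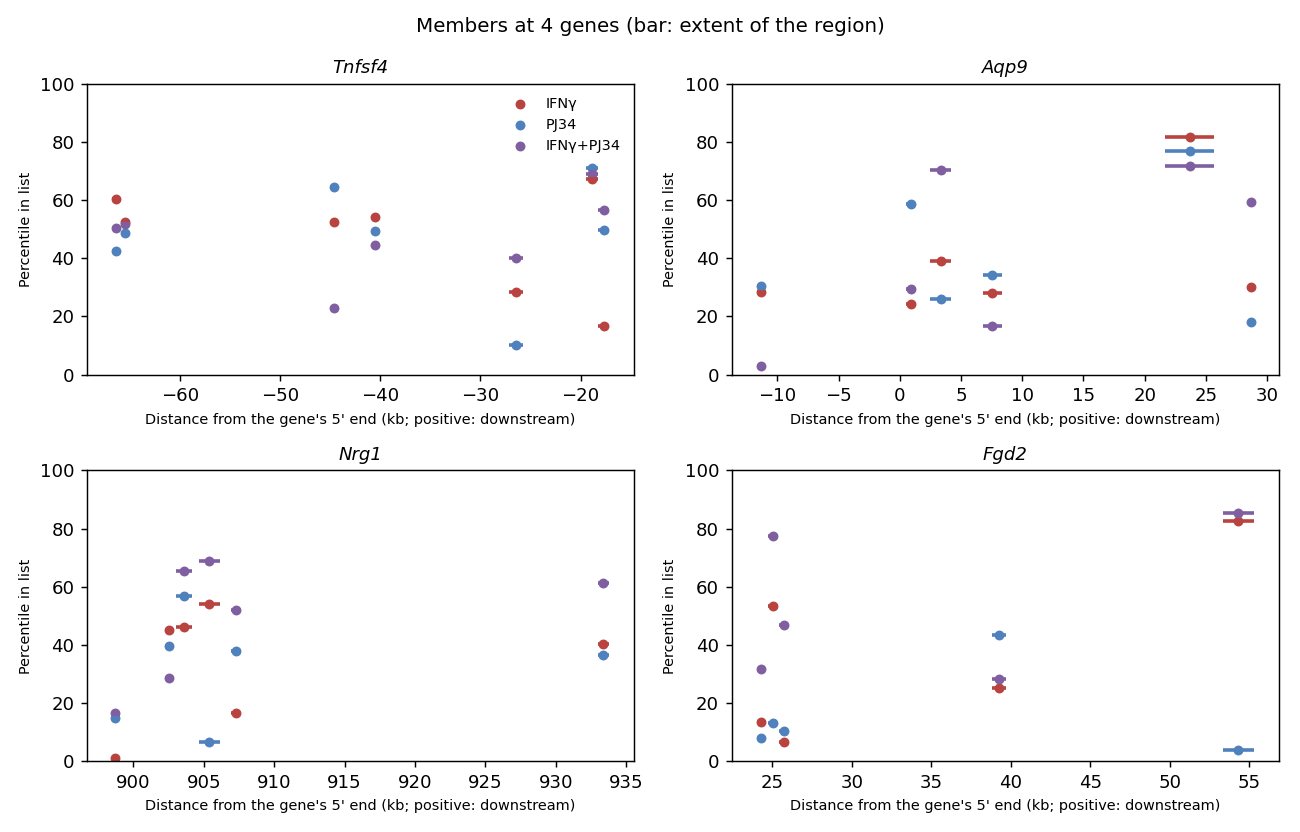
Percentile in each list (vertical axis, 0 to 100) of the members nearest to Tnfsf4, Aqp9, Nrg1 and Fgd2 against distance from the gene's annotated 5′ end in kb, with bars for the extent of a region; distances in the text are to the nearest start site of any transcript instead. The Tnfsf4 regions all lie upstream, and the widest Aqp9 region lies inside the gene with percentiles between 71.7 and 81.6.

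Promoters with a member were few and had mixed ranks. After Scamp3, the highest were those of Prrg4 (46.6, 46.5 and 68.9 in IFNγ, PJ34 and IFNγ+PJ34), Sphk1, a kinase that makes sphingosine-1-phosphate (57.0, 55.5 and 44.8), 6030452D12Rik (69.6, 53.0 and 41.2) and Slc13a1, a sulfate transporter (56.6, 46.1 and 40.2). The 6030452D12Rik region lay 238 bp from a Control peak, and those of Prrg4, Sphk1 and Slc13a1 lay 30019 bp or more from one. A region 0.611 kb from a start site of Il6, which encodes the cytokine IL-6, was at 52.9, 38.1 and 43.2. The nearest Control peak was 432 bp away from it, and Control had a peak within 1 kb of an Il6 start site. Chemokine promoters of the chromosome 11 cluster, chosen after their values were seen, were also among the 51: Ccl8 at 31.3, 41.8 and 57.2, and Ccl2 at 34.8, 5.44 and 53.4.

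Of 54 matched IFNγ-response genes, 16 had a member within 50 kb of a start site (29.6%, 18.0 to 43.6), against 3.86% of 21840 protein-coding genes and 5.69% of the 10411 with promoter peaks in all 4 lists. For each gene near several members, the 1 with the highest lowest percentile is described, and as neighbouring genes share regions these come to 11 for the 16 genes. List genes also had more marked regions around them, a median of 5 regions in all 4 lists within 50 kb against 3 for the 10411 genes. The same list had 11 genes near regions missing from IFNγ alone, 11 near those missing from PJ34 alone and 15 near those missing from IFNγ+PJ34 alone (20.4%, 20.4% and 27.8%), where the 10411 genes had 15.8%, 8.03% and 22.0%. The genes were listed with earlier results of these data known.

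The Ccl2, Ccl7 and Ccl12 chemokine genes shared an intergenic region whose edge lay 27.1 to 37.7 kb from their start sites. It was at 42.4 with IFNγ, 54.8 with PJ34 and 62.8 with both. Its nearest gene was Ccl11, and a Control peak lay 132 bp from it. The region near Cd274, which encodes PD-L1, is the wide one near Pdcd1lg2. Regions near the guanylate-binding protein genes were at 50.9, 42.9 and 42.3 for Gbp6, at 63.0, 9.72 and 43.7 for Gbp4, and at 58.8, 39.2 and 8.86 for Gbp3 and Gbp7. These GTPases act in defence against intracellular microbes.

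Near Irf1, a transcription factor induced by IFNγ, a region whose edge lay 3.14 kb from a start site was at 37.6, 21.4 and 20.9. One with its edge 2.21 kb from a start site of Socs3, an inhibitor of JAK signalling, was at 26.9, 41.7 and 33.4. The MHC class II genes H2-Aa, H2-Ab1 and H2-Eb1 shared a region at 33.7, 16.9 and 18.7. Regions near Aim2, a sensor of cytosolic DNA (29.5, 38.7 and 49.8), Cd86, a costimulatory ligand (45.1, 19.2 and 43.2), and Irf8, a myeloid transcription factor (44.7, 17.9 and 29.4), complete the 16. None of the 3 lists was highest at all of these regions. Control peaks lay 85 bp from the Cd86 region, 189 bp from the Aim2 region, 193 bp from the Socs3 region and 406 bp from the Irf1 region.

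Other gene lists had members within 50 kb as follows, to be read beside the same 5.69%. Inflammatory and NF-κB genes had 8 of 36 (22.2%, 10.1 to 39.2), among them Il6, Il1rn, Nfkb1, Tnfaip3, Tlr2, Cxcl3, Tlr4 and Il1a. Macrophage lineage genes had 8 of 39 (20.5%, 9.30 to 36.5), and AP-1 and immediate-early genes 6 of 31 (19.4%, 7.45 to 37.5). Kinase and phosphatase genes had 4 of 38 (10.5%, 2.94 to 24.8), genes of PARPs, ADP-ribose and DNA damage 3 of 36 (8.33%, 1.75 to 22.5), and alternative activation and lipid genes 2 of 32 (6.25%, 0.766 to 20.8). The last 3 intervals hold the share of the 10411 genes. The lists were not near the members alone: regions missing from IFNγ, PJ34 or IFNγ+PJ34 alone lay near 25.6% of the macrophage lineage genes each, and near 16.7%, 0% and 66.7% of the inflammatory genes. Those 2 lists also had a median of 4 and 5 regions in all 4 lists within 50 kb.

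Over the 1 region described for each of the 8 inflammatory genes, the medians were 35.2 with IFNγ, 11.7 with PJ34 and 36.5 with both. A region near Nfkb1, which encodes the NF-κB subunit p50, was at 57.4, 13.2 and 16.8, and one near Tnfaip3, an NF-κB inhibitor, at 37.6, 12.4 and 32.4. In the PARP list, the region near Tiparp, an ADP-ribosyltransferase, was at 61.6, 52.1 and 36.2, those near Nampt, which makes the NAD precursor NMN, at 33.7, 47.8 and 33.4 and at 50.5, 42.3 and 18.7, and that at Gadd45a, a DNA damage response gene, at 45.1, 54.9 and 20.4. The Gadd45a region lay 82 bp from a Control peak and the Tiparp region 1079 bp from one. Among kinases, a region near Jak2, the kinase of the IFNγ receptor, reached 81.9, 50.9 and 76.6. A region near Batf3, an AP-1 family factor, was at 65.7, 15.9 and 82.1.

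Most motif ratios moved toward 1 once promoters were set aside. The GAS share of 7.65% (57 regions) was 1.50 times that of the regions in all 4 lists (interval 1.16 to 1.94). A control motif with exchanged ends (GAANNNTTC) was 1.48 times as frequent (1.10 to 1.98). Outside promoters the GAS ratio was 1.20 (0.924 to 1.56) and that of the control motif 1.21 (0.892 to 1.64). Against the regions missing from PJ34 alone the GAS ratio was 1.04 (0.733 to 1.46), and against those missing from IFNγ alone 1.25 (0.911 to 1.71). Against those missing from IFNγ+PJ34 alone it was 1.31 (0.986 to 1.75).

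The AP-1 ratio fell from 1.63 (1.12 to 2.36) to 1.17 (0.792 to 1.73) outside promoters, and ISRE was at 1.05 (0.693 to 1.59), PU.1 at 0.945 (0.485 to 1.84) and C/EBP at 0.896 (0.673 to 1.19) there. The GC box (GGGCGG), a CG-rich promoter motif bound by SP and KLF factors, was rarer in the members, at 3.22% against 21.3% (ratio 0.151, 0.102 to 0.225) and at 0.380 (0.225 to 0.642) outside promoters. Regions missing from PJ34 alone and from IFNγ+PJ34 alone held it at 3.81% and 4.20%, to which the members' ratios were 0.846 (0.503 to 1.42) and 0.767 (0.500 to 1.18). Regions missing from IFNγ alone held it at 7.51%, to which the ratio was 0.429 (0.279 to 0.659). The GC box was held by 10.6% of all regions. The low GC content of the members moves in the same direction, and its part in this ratio was not tested.

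**Figure D4:**
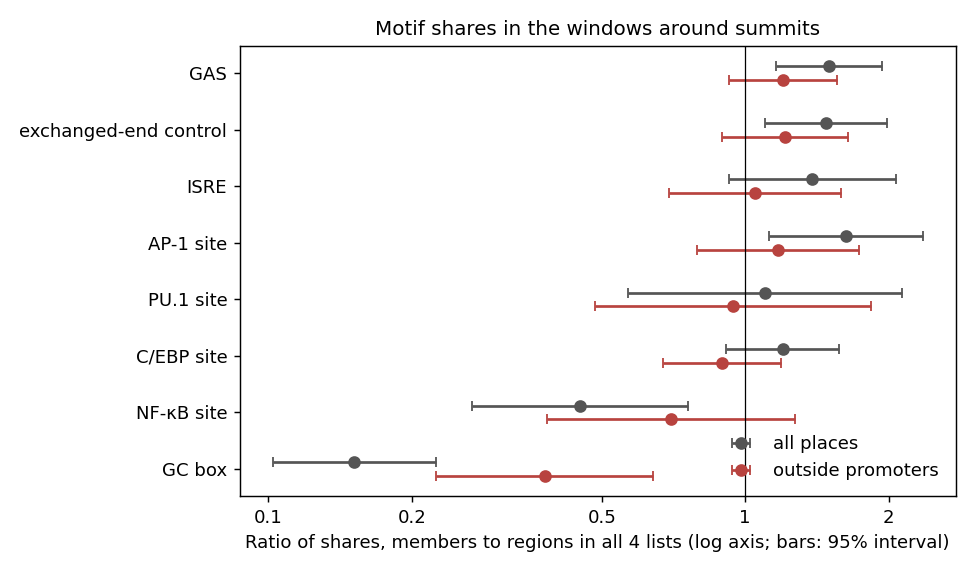
Ratio of the share of members holding a motif to the share of regions in all 4 lists (log axis), with 95% intervals, for all places (grey) and outside promoters (red). Outside promoters the intervals hold 1 for every motif drawn but the GC box, at 0.380.

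Around the members, regions that were in all 4 lists also ranked lower in Control. Taking for each member the nearest such region, where it lay within 10 kb, gave 407 regions, and their Control percentile had a median of 63.2, against 73.9 with IFNγ, 71.7 with PJ34 and 74.4 with both. The median difference to Control was 5.95 points in IFNγ (3.90 to 7.74), 4.75 in PJ34 (3.61 to 5.89) and 4.80 in IFNγ+PJ34 (2.96 to 7.96). Over all 21468 regions in all 4 lists it was −2.22, 0.10 and −3.34. All 3 comparisons share the Control list.

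In IFNγ, 37.6% of the neighbours were at least 10 points above Control and 10.3% at least 10 below, where 12.1% and 27.4% of all such regions were. In PJ34 the shares were 36.4% and 7.13%, against 12.5% and 16.9%, and in IFNγ+PJ34 40.3% and 16.5%, against 15.5% and 30.1%. At Control percentiles of 25 to 50, the neighbours' median differences were 14.4, 15.1 and 14.5 points and those of all regions there 0.79, 5.13 and 1.27, and at 75 to 100 they were 1.60, 0.80 and 0.70 against −1.76, −0.21 and −3.01. Neighbours of the regions missing from another list alone were likewise low in that list, by −7.87 points for IFNγ, −4.92 for PJ34 and −10.7 for IFNγ+PJ34 against Control. The neighbours come from the same libraries as the choice of members, so these values are a description and support nothing about it.

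**Figure D5:**
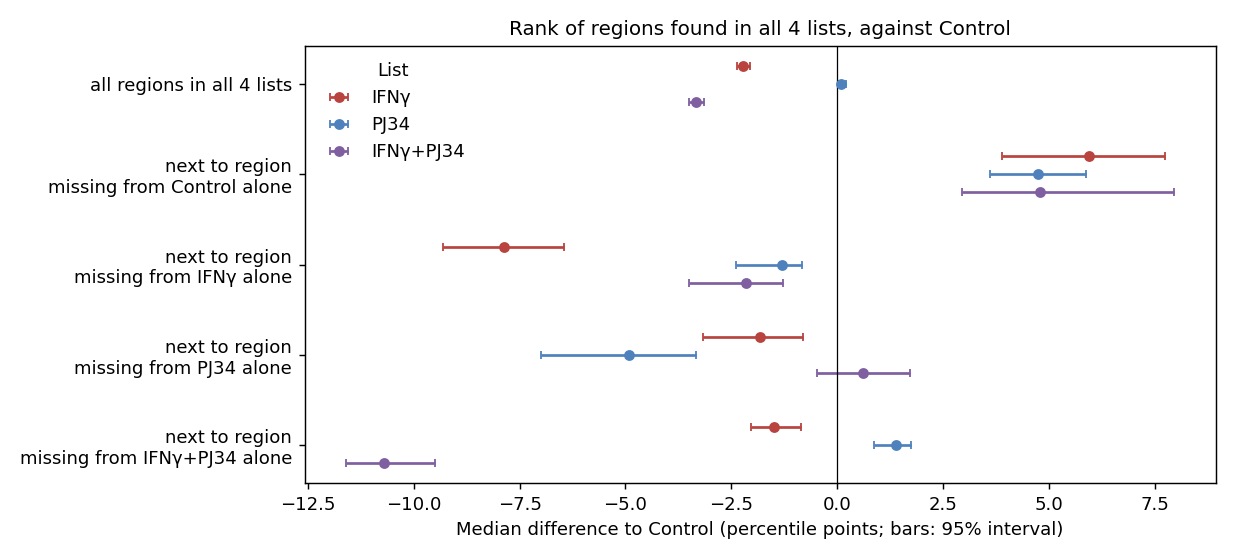
Median difference in percentile to Control, in points, of regions found in all 4 lists, for all of them and for those nearest to, and within 10 kb of, a region missing from 1 list alone, with 95% intervals. Beside regions missing from Control alone, the IFNγ, PJ34 and IFNγ+PJ34 medians are 5.95, 4.75 and 4.80.

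Promoters of the nearest genes differed from Control by less. Of 420 genes nearest to a non-promoter member whose promoters had peaks in all 4 lists, the median difference to Control was 0.74 points in IFNγ (0.318 to 1.20), 0.82 in PJ34 (0.500 to 1.41) and 0.00 in IFNγ+PJ34 (−0.361 to 0.519), where all 10411 promoters had −1.35, 0.75 and −3.29. At least 10 points above Control were 8.57%, 6.90% and 9.76% of them, against 3.46%, 5.79% and 4.59% of all 10411 promoters. The PJ34 interval, 4.67 to 9.77, holds the background share. At least 10 points below Control were 4.76%, 2.62% and 10.2%, against 14.0%, 4.54% and 21.3%.

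The labelled cell type was checked by marker promoters. All 10 macrophage markers (among them Csf1r, Cd68 and Spi1) had a promoter peak in every list. Of the T cell markers 1 of 8 had one in every list (Cd28) and of the B cell markers 1 of 6 (Ms4a1), and of the dendritic cell markers 3 of 6 (Zbtb46, Xcr1 and Batf3). The lists held 40708 to 44090 peaks covering 42.5 to 52.6 Mb. The Control list had the largest coverage, with 43533 peaks of a median width of 732 bp.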

How the data were processed

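H3K27ac ChIP-seq of BMDMs comprised 8 ChIP and 8 input samples; the input samples were not analysed here on their own. The authors aligned reads to mm10 with Bowtie, kept unique reads, called relaxed peaks in each replicate against input with MACS and retained those found in both replicates, using BEDTools, which gave 4 lists. Per peak, the deposited values are a score from 10 to 1000, a fold enrichment ratio over local background, and −log10 p- and −log10 q-values. The authors set these per list, so only ranks within a list were compared. Read depth is not given in the files, and the part of depth in the absence of a peak was not tested.

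Lists were merged at an overlap of 1 bp. Places came from GENCODE M21 (21840 protein-coding genes), motifs from RefSeq GRCm38.p6. Shares have exact Clopper-Pearson intervals, differences Newcombe intervals, ratios log-normal intervals and medians order-statistic intervals, all at 95%, covering counting error only. With 1 list per condition no p-value is given. Named were the 10 members with the highest lowest percentile, the widest 3, the 3 farthest from and the 3 nearest to Control, the 5 highest promoters, the 5 with the largest IFNγ to PJ34 difference each way, members near listed genes and the genes with most members. The members and lists were chosen with earlier results of these data known. The comparisons of neighbouring regions, of GC content outside promoters and of crowding around listed genes were added later, with the data in view. The results for 1 of the 10 highest members and for 1 gene list are not reported here. Functions were tested on simulated data. Python 3.11.15, numpy 2.4.6, pandas 2.3.3 and scipy 1.17.1 were used.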

Additional observations from a re-analysis of the deposited data

How the results depend on the processing

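No paired analysis was possible because the replicates of a condition share 1 list, which also kept either of them from being left out. Instead of 745 regions, a merge distance of 1 kb gave 467. The higher-scoring 50% of every list gave 341. That cut also removes the lower-scoring Control peaks, so regions holding such a peak can enter and the 341 are not a subset of the 745. The higher-scoring 50% of the treated lists against the whole Control list gave 20. Nearly all of the 745 thus depend on peaks in the lower part of a list. Under those last 2 settings the promoter share was 14.1% and 5.00%, the median lowest percentile 56.3 and 55.4, which the cut itself raises, and the share of IFNγ-response genes 16.7% and 0. With q under 0.01 and with lists of equal size the median lowest percentile was 18.7 and 19.2. The promoter share was 9.93% with promoters out to 2.5 kb. The share of IFNγ-response genes was 16.7% with a merge distance of 1 kb and 14.8% at 10 kb. The median IFNγ minus PJ34 difference of the members was 7.01 points (4.71 to 10.1) in the main setting and 4.83 with lists of equal size. Without regions within 1 kb of a Control peak it was 10.6 points. The share of IFNγ-response genes was then 18.5% (9.25 to 31.4), against 29.6% with all members. The share over all genes was not computed under these other settings. The 3.86% and 5.69% given above hold only for the 745 members at 50 kb, so whether the excess over background changed was not tested. The GAS ratio stayed between 1.20 and 1.62 except for the strict motif, at 1.64, and its interval held 1 with a merge distance of 1 kb, the higher-scoring 50% of every list, no Control peak within 1 kb, the strict motif and outside promoters. For the 20 regions no GAS ratio could be had. The setting outside promoters and a promoter share by the IFNγ summits, 6.71%, were chosen after seeing the data.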
